A study of Mus musculus with 7 samples.

Results

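The 10 genes described here build and place the actin core of stereocilia, the stiff projections of the hair cell that turn sound into a signal. They are Gpsm2, Gnai3, Eps8, Myo15, Myo3a, Espn, Fscn2, Xirp2, Triobp and Myo6. They were taken by name, as members of the stereocilia actin core, its myosins and the Gpsm2 polarity complex, and the rule uses no measured value, though earlier results of these data were known when they were chosen. All 10 were found among the 48709 genes of each deposited table. RNA was sequenced from supporting cells, the non-sensory neighbours of the hair cells, in 7 libraries from mouse cochleae taken at postnatal day 1 and kept as organ cultures. In 2 libraries the cultures had received trichostatin A (TSA), which blocks histone deacetylases, at 200 nM for 48 h. In 3 libraries they had received GSK-343, an inhibitor of the histone methyltransferase EZH2, at 10 µM for 48 h. In 2 libraries they had received the solvent DMSO in matching amount for 48 h. All groups shared a culture medium with EGF and FGF, dissociation with trypsin and sorting for GFP. The labels name neither the strain nor the promoter that drove GFP, and they do not say whether replicates came from separate cultures or animals, so each p-value measures only the spread between these samples.

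In a hair cell, GPSM2 and the G protein subunit GNAI3 mark the side of the cell surface where the tallest stereocilia form, and they are carried to the tips of those stereocilia together with the motor myosin 15 and the actin regulator EPS8. Espin and fascin 2 cross-link the parallel actin filaments of the shaft, XIRP2 binds them, and TRIOBP packs them into the rootlet that anchors each stereocilium. Myosin 3a carries espin towards the tip, and myosin 6, which walks the other way along actin, acts at the base. Supporting cells carry no hair bundle, but several of these proteins are also used in other cells: GPSM2 and GNAI3 orient the spindle of dividing cells, and EPS8, myosin 6 and TRIOBP act on the actin of many cell types.

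In the GRCm38 build, which equals mm10, the polarity genes lie on the same chromosome and strand. Gpsm2 spans chr3:108678638-108722309 and Gnai3 chr3:108107280-108146146, both on the minus strand, with 532491 bases between them. Triobp lies on the plus strand at chr15:78947724-79005869. RefSeq (GRCm38.p6) gave 12 promoters for 9 of the 10 genes, each from 250 bases before to 50 bases after a transcription start; Eps8 had none there. The promoters of Gpsm2, Gnai3 and Triobp are shown because these genes passed the test between the compounds, the first pair upwards with TSA and Triobp downwards. Each is written in the direction of transcription, and capitals mark the E-box CANNTG and the GC box GGGCGG, read on either strand (GGGCGG appears as CCGCCC on the other, and overlapping matches count separately). The Gpsm2 promoter is chr3:108722250-108722549 on the minus strand, and the Gnai3 promoter is chr3:108146103-108146402 on the minus strand. The Triobp promoters are chr15:78947474-78947773 and, at an internal start within the gene, chr15:78982806-78983105, both on the plus strand.
Gpsm2: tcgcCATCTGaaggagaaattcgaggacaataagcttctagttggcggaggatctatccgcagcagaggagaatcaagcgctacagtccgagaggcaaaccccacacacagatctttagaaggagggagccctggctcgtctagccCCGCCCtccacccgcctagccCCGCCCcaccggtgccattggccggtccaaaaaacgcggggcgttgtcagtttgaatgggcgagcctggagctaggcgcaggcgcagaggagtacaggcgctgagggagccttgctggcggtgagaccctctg
Gnai3: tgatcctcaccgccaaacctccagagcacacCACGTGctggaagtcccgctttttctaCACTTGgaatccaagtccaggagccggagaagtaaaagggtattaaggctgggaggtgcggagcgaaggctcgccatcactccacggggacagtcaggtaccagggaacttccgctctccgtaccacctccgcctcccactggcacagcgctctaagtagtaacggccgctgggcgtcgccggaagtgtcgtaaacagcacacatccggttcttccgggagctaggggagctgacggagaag
Triobp, first start: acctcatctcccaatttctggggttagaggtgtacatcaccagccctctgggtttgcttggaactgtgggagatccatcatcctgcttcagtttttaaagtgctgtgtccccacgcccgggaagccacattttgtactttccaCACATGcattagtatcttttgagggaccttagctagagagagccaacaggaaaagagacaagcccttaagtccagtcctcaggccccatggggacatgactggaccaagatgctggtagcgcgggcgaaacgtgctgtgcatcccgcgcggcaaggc
Triobp, internal start: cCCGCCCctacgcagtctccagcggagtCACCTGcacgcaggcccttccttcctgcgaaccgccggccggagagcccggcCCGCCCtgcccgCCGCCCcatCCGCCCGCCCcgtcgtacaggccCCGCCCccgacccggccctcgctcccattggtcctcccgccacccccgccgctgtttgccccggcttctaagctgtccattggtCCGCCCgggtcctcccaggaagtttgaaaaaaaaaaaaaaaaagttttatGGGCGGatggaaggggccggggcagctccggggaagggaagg
The Gpsm2 promoter held 20 CpG sites and the Gnai3 promoter 21, against a median of 7 over all 32851 promoters of the same length (lower quartile 3, upper quartile 20). The Gpsm2 promoter held 2 GC boxes and 1 E-box, and the Gnai3 promoter 2 E-boxes and 0 GC boxes. Of the Triobp promoters, the first start held 9 CpG sites and 0 GC boxes, and the internal start held 29 CpG sites and 8 GC boxes. The motor gene Myo15 and the actin-binding gene Xirp2 had 1 CpG site each, the lowest of the 12 promoters. An E-box was present in 8 of the 12 promoters and in 72.3% of all promoters, and a GC box in 7 of the 12 and in 35.7% of all promoters. Each count is a match of letters and not a measured site.

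The remaining genes lie at chr6:137477245-137654876 on the minus strand (Eps8), chr11:60469339-60528369 on the plus strand (Myo15), chr4:152120331-152152371 on the minus strand (Espn), chr9:80165031-80311729 on the plus strand (Myo6), chr2:22227503-22618252 on the plus strand (Myo3a), chr11:120361534-120368168 on the plus strand (Fscn2) and chr2:67446002-67526614 on the plus strand (Xirp2). Exons of 3 genes overlap a gene on the other strand, and the sources used here do not say whether counting used strand: Gpsm2 overlaps Clcc1, a chloride channel gene, Triobp overlaps Gm10865, which was not analysed here, and Xirp2 overlaps Gm13601, which had 0 counts.

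The libraries set limits on every value. The total expected count, RSEM's estimate of reads per gene summed over genes, was 2724381 and 2963228 in TSA libraries, 3398893 to 4248336 in GSK-343 libraries, and 5974230 and 5124247 in DMSO. The DMSO libraries were quantified in another read layout: gene length minus effective length had a median of 208.21 to 212.69 bases in the 5 treated libraries and of 49 bases in both DMSO libraries. In every comparison with DMSO, treatment and layout cannot be told apart, while TSA and GSK-343 share a layout. Nuclear protein-coding genes took 85.4% and 78.2% of the counts in TSA libraries, 93.4%, 86.3% and 86.8% in GSK-343 libraries, and 62.5% and 63.4% in DMSO. Mitochondrial rRNA took 10.4% and 18.1% of the counts in TSA libraries, 3.47%, 7.38% and 8.60% in GSK-343 libraries, and 23.6% and 20.8% in DMSO, so both shares also separated TSA from GSK-343. All 16 supporting cell markers (Sox2, Sox9, Lfng, Prox1 and others) were above 0 in every library, and their summed TPM was 16903 and 12795 in TSA libraries, 29227 to 39700 in GSK-343 libraries, and 9491 and 6924 in DMSO. S100a1 alone held 15057, 26992 and 27765 TPM in GSK-343 libraries, against 1204 and 767 TPM in DMSO. The mean log2 CPM (counts scaled to library size) of these 16 was 9.40, 9.22 and 9.09 in GSK-343 libraries. It was 9.49 and 9.28 in DMSO and 8.27 and 8.06 in TSA libraries. The 20 hair cell markers had summed TPM of 2384 and 439 in TSA libraries, 822, 374 and 1156 in GSK-343 libraries, and 121 and 93.8 in DMSO. The sum in TSA replicate 1 was above that in TSA replicate 2 and all other libraries. Whether supporting cells themselves express these genes was not tested. In DMSO, Pcdh15 and Ccer2 had 33.8 and 17.2 TPM in replicate 1 and 18.5 and 34.2 TPM in replicate 2. Acbd7, Myo7a and Rasd2 had 17.6, 10.6 and 9.95 TPM in DMSO replicate 1 and 2.18, 1.03 and 2.95 TPM in DMSO replicate 2. The hair cell transcription factor gene Pou4f3 had 1.39 and 5.45 TPM there. Of these 20, 3 (Slc17a8, Tmc1 and Slc26a5) were at 0 in GSK-343 replicate 2, 2 in DMSO replicate 1 and 1 in DMSO replicate 2. The 10 neuron markers had summed TPM of 503 and 386 in TSA libraries, 31.2 to 60.7 in GSK-343 libraries, and 53.6 and 34.4 in DMSO. The part of these markers and of mitochondrial rRNA in the results below was not tested.

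Between the compounds, Gpsm2 and Gnai3 rose with TSA relative to GSK-343, Triobp fell, and the other 7 genes did not pass the test. The test was edgeR's quasi-likelihood test with Benjamini-Hochberg adjustment over 14907 genes and a threshold of 0.05. The members called were 3 of 10, where 10.7% of all genes tested were called, 5.04% upwards and 5.68% downwards. Leaving out TSA replicate 2 left 0 members called, and leaving out GSK-343 replicate 3 left 1. In limma fits on the deposited TPM 0 members were called, with adjusted p of 0.0656 to 0.132 for Gpsm2, 0.0657 to 0.133 for Gnai3 and 0.103 to 0.21 for Triobp. In a fit on nuclear protein-coding genes alone all 3 passed. The median log2 fold change of the 10 genes was 0.55, against 0.00 for all genes. All 10 genes passed the filter on low counts.

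**Figure D1:**
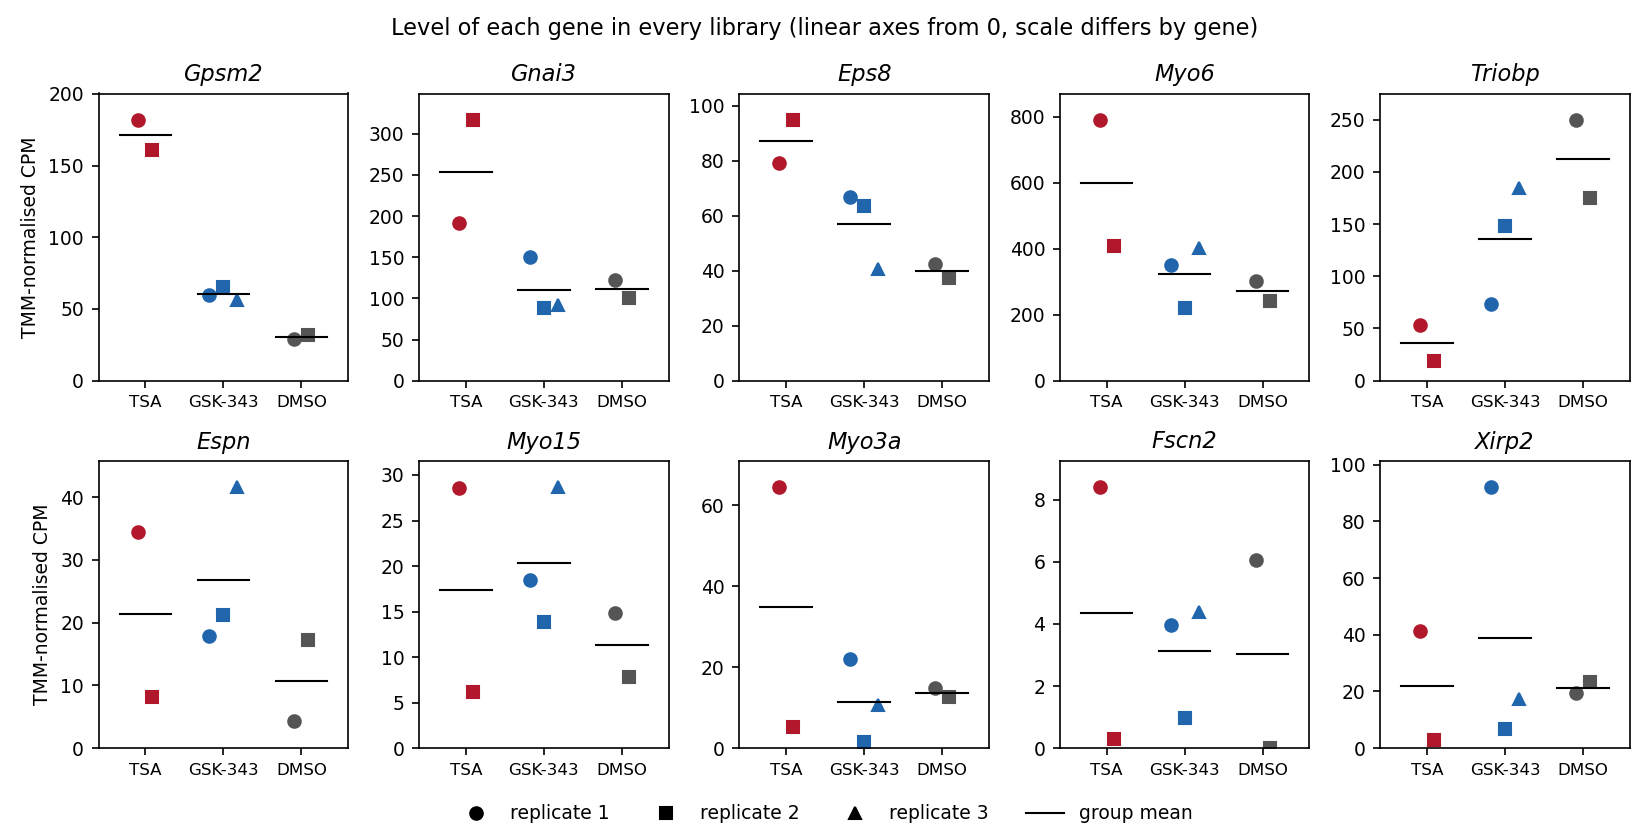
Level of each gene in every library, in TMM-normalised CPM (counts scaled to library size), with linear axes that start at 0 and differ by gene. Symbols mark replicates and bars the group mean (TSA n = 2, GSK-343 n = 3, DMSO n = 2). Gpsm2 stood at 182 and 161 CPM in TSA libraries, above every other library, while Myo3a stood at 64.4 and 5.28 CPM within the TSA group.

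Of the polarity genes, Gpsm2 had closer replicates than Gnai3. It stood at 182 and 161 CPM in TSA libraries, at 60.1, 65.2 and 56.0 CPM in GSK-343 libraries, and at 29.0 and 32.1 CPM in DMSO, where CPM are counts scaled to library size with edgeR's TMM factors. The groups did not overlap in any of the 3 comparisons, and GSK-343 lay between TSA and DMSO. The log2 fold change of TSA over GSK-343 was 1.51 ± 0.32 (SE, adjusted p = 0.0104). This call was lost without TSA replicate 2, where the log2 fold change was 1.57 and the adjusted p 0.0748. In a bulk sample, fewer cells of a type and less RNA per cell cannot be told apart. Over the 7 libraries the r of Gpsm2 with the mean log2 CPM of the marker lists was 0.56 for hair cells, −0.92 for supporting cells and 0.85 for neurons, a description over points that share their depth and layout.

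Gpsm2 was also higher with TSA than in DMSO, by 2.49 ± 0.37 on the log2 scale (adjusted p = 0.000354). It passed the threshold in all 20 alternatives run, with log2 fold changes of 2.28 to 3.20. With GSK-343 it was higher than in DMSO by 0.98 ± 0.33 (adjusted p = 0.0291). That call was lost without GSK-343 replicate 2 (adjusted p = 0.0755), DMSO replicate 1 (0.127) or DMSO replicate 2 (0.0865), and in the 3 limma fits on TPM (log2 fold changes of 0.63 to 0.65, adjusted p of 0.255 to 0.262). In the deposited TPM the GSK-343 values of 53.6, 38.5 and 27.9 overlapped the DMSO values of 32.9 and 18.5. TPM divide by effective length, which for Gpsm2 was 2188, 2997 and 3288 bases in GSK-343 libraries and 994 and 1752 bases in DMSO. The part of these lengths in that overlap and in the limma results was not tested. Clcc1, the gene whose exons Gpsm2 overlaps, held 895.87 counts over the 7 libraries against 2173.14 for Gpsm2. Clcc1 stood at 31.1 and 62.8 CPM in TSA libraries, at 29.8, 29.0 and 51.3 CPM in GSK-343 libraries, and at 5.39 and 26.3 CPM in DMSO. Against DMSO Clcc1 differed in the same direction as Gpsm2, by 1.57 ± 0.64 with TSA (adjusted p = 0.0763) and 1.22 ± 0.59 with GSK-343 (adjusted p = 0.116) on the log2 scale, and in both cases the CPM values did not overlap. Its TSA and GSK-343 libraries overlapped, and TSA over GSK-343 came to 0.35 ± 0.56 on the log2 scale (adjusted p = 0.728).

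Gnai3, the inhibitory G protein subunit that binds GPSM2, stood at 191 and 317 CPM in TSA libraries, at 150, 88.4 and 91.8 CPM in GSK-343 libraries, and at 122 and 100.1 CPM in DMSO. Both TSA libraries were above all others, and GSK-343 and DMSO overlapped. On the log2 scale the fold change was 1.21 ± 0.34 for TSA over GSK-343 (adjusted p = 0.0373) and 1.19 ± 0.39 for TSA over DMSO (adjusted p = 0.0308). The call against GSK-343 was lost without TSA replicate 2 (log2 fold change 0.78, adjusted p = 0.473), GSK-343 replicate 2 (0.106), GSK-343 replicate 3 (0.094), DMSO replicate 1 (0.0589) or DMSO replicate 2 (0.058). It was also lost after removal of a trend on GC share and on length of transcripts (log2 fold change 0.46, adjusted p = 0.331). The call against DMSO was lost without TSA replicate 2 (0.267), DMSO replicate 1 (0.09) or DMSO replicate 2 (0.155). For GSK-343 over DMSO the log2 fold change was −0.01, with a 95% interval of −0.75 to 0.73. Its sign turned in 12 of the 20 alternatives, and after removal of the GC and length trend Gnai3 rose by 1.30 (adjusted p = 0.00492). The r of Gnai3 was 0.83 with the neuron marker mean, 0.09 with the hair cell marker mean and −0.80 with the supporting cell marker mean.

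Among the tip genes, Eps8, an actin-capping and bundling protein, stood at 79.3 and 95.03 CPM in TSA libraries, at 66.9, 63.5 and 40.7 CPM in GSK-343 libraries, and at 42.5 and 37.3 CPM in DMSO. Both TSA libraries were above all others, and 1 GSK-343 library lay among the DMSO values. For Eps8 the log2 fold change was 0.61 ± 0.36 for TSA over GSK-343 (adjusted p = 0.281, 95% interval −0.14 to 1.37) and 1.13 ± 0.40 for TSA over DMSO (adjusted p = 0.0451). The call against DMSO was lost without TSA replicate 1 (0.082), TSA replicate 2 (0.205), GSK-343 replicate 2 (0.0584), DMSO replicate 1 (0.108) or DMSO replicate 2 (0.159), and with nuclear protein-coding genes alone (0.0582). Its r was 0.68 with the neuron marker mean, 0.325 with the hair cell marker mean and −0.75 with the supporting cell marker mean. Eps8 was the member most like Gpsm2 over the 7 libraries (r of log2 CPM 0.89).

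Myo15, the motor that delivers the tip complex and is largely restricted to hair cells in the ear, stood at 28.6 and 6.16 CPM in TSA libraries, at 18.4, 13.9 and 28.7 CPM in GSK-343 libraries, and at 14.8 and 7.82 CPM in DMSO. TSA replicate 1 was close to the highest library and TSA replicate 2 was the lowest, and all groups overlapped in CPM. The log2 fold change of TSA over GSK-343 was −0.23 ± 0.64 (adjusted p = 0.865), with a 95% interval of −1.59 to 1.14. Its r with the hair cell marker mean was 0.83, the highest of the 10 genes. The same r was 0.78 for Espn, 0.65 for Fscn2, 0.48 for Myo3a and 0.44 for Xirp2. Myo3a, the motor that carries espin, stood at 64.4 and 5.28 CPM in TSA libraries, at 22.1, 1.46 and 10.6 CPM in GSK-343 libraries, and at 14.8 and 12.5 CPM in DMSO. TSA replicate 1 was 12.2 times TSA replicate 2, and the log2 fold change of TSA over GSK-343, 1.62 ± 0.97 (adjusted p = 0.309), became −1.11 without TSA replicate 1.

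The crosslinker genes did not pass the test in any comparison as fitted here, but Espn passed against DMSO under some alternatives. Espn, the espin gene, stood at 34.5 and 8.21 CPM in TSA libraries, at 17.9, 21.2 and 41.6 CPM in GSK-343 libraries, and at 4.27 and 17.2 CPM in DMSO. Every GSK-343 library was above both DMSO libraries, and TSA overlapped each of the other groups. The log2 fold change of GSK-343 over DMSO was 1.33 ± 0.71 (adjusted p = 0.150, 95% interval −0.18 to 2.84). Espn did pass in this comparison in the limma fits on log2(TPM + 1) (2.95, adjusted p = 0.0287) and log2(TPM + 0.1) (3.33, adjusted p = 0.0337). TPM divide by effective length, which for Espn was 1277, 1212 and 1620 bases in GSK-343 libraries and 3300 and 2536 bases in DMSO. The ratio of group means, GSK-343 over DMSO, was 8.075 in TPM and 2.504 in CPM. The part of these lengths in the limma calls was not tested. The log2 fold change ranged from 0.69 to 2.67 when 1 library was left out, with 2.67 without DMSO replicate 2.

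Fscn2, which cross-links mature stereocilia and is also found in photoreceptors, had the lowest counts of the 10 genes. It stood at 8.40 and 0.293 CPM in TSA libraries, which were 30 and 1 counts, at 3.97, 0.974 and 4.39 CPM in GSK-343 libraries, and at 6.06 and 0 CPM in DMSO. A count of 0 in DMSO replicate 2 allows up to 3 counts or 0.782 CPM, for counting error only. All groups overlapped, and the log2 fold change of TSA over GSK-343 was 0.48 ± 1.35 (adjusted p = 0.861).

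Xirp2, an actin-binding protein of stereocilia that is also a muscle gene, stood at 41.2 and 2.93 CPM in TSA libraries, at 92.1, 6.82 and 17.3 CPM in GSK-343 libraries, and at 19.3 and 23.2 CPM in DMSO. A single library was high in each treated group, and both DMSO libraries lay inside the range of the treated libraries. The log2 fold change of TSA over GSK-343 was −0.80 ± 1.12 (adjusted p = 0.691), and it became 0.87 without GSK-343 replicate 1. The 10 muscle markers had summed TPM of 1.67 and 2.42 in TSA libraries, 2 to 6.08 in GSK-343 libraries, and 12.8 and 21.6 in DMSO.

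Against DMSO, Espn, Myo15, Myo3a, Fscn2 and Xirp2 did not pass the test. These are the 5 genes whose TSA replicates differed most. That spread enters the error of the test, so not passing is no separate result about them. Their log2 fold changes lay between 0.06 (Xirp2) and 1.35 (Myo3a) for TSA, with adjusted p of 0.341 to 0.979, and between −0.27 (Myo3a) and 1.33 (Espn) for GSK-343, with adjusted p of 0.150 to 0.992. Xirp2 ran with TSA from −2.66 to 2.77 at the ends of its 95% interval, so changes of either sign remain within the error.

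Triobp, the rootlet gene, fell with TSA relative to both other groups. It stood at 53.8 and 18.8 CPM in TSA libraries, at 73.7, 149 and 184 CPM in GSK-343 libraries, and at 250 and 175 CPM in DMSO. Both TSA libraries were below all others, and the highest GSK-343 library lay above the lower DMSO library. For Triobp the log2 fold change was −1.90 ± 0.49 for TSA over GSK-343 (adjusted p = 0.0251) and −2.55 ± 0.52 for TSA over DMSO (adjusted p = 0.003). The call against GSK-343 was lost without TSA replicate 2 (log2 fold change −1.35, adjusted p = 0.241) or GSK-343 replicate 3 (0.0697), and with scaling by total counts (−1.62, adjusted p = 0.0595). The call against DMSO held when any single library was left out, and was lost in the limma fits on TPM (adjusted p 0.0628 to 0.111). For GSK-343 over DMSO the log2 fold change was −0.65 ± 0.44 (adjusted p = 0.258). The r of Triobp was 0.85 with the mean of the supporting cell markers, −0.80 with that of the neuron markers and −0.22 with that of the hair cell markers. Triobp ran opposite to Gnai3 (r = −0.93), Eps8 (−0.90) and Gpsm2 (−0.86).

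Marker lists also moved between the compounds, where Triobp fell and Gpsm2 and Gnai3 rose. In that comparison 6 of the 16 supporting cell markers fell with TSA and 0 rose, while 5 of the 9 neuron markers tested rose and 0 fell. Of the 19 hair cell markers tested, 0 rose and 0 fell, and of the 6 Schwann cell and glia markers tested, 0 rose and 2 fell. Among all genes tested, 5.04% rose and 5.68% fell. The part of these cell types in the changes of Triobp, Gpsm2 and Gnai3 was not tested.

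Myo6, the minus-end motor of the stereocilia base, was the most abundant of the 10 in CPM. It stood at 792 and 408 CPM in TSA libraries, at 351, 221 and 404 CPM in GSK-343 libraries, and at 302 and 240 CPM in DMSO. Both TSA libraries were above all others, the lower of them by 408 against 404 CPM, and GSK-343 and DMSO overlapped. For Myo6 the log2 fold change was 0.88 ± 0.35 for TSA over GSK-343 (adjusted p = 0.113, 95% interval 0.14 to 1.63) and 1.15 ± 0.39 for TSA over DMSO (adjusted p = 0.0395). The call against DMSO was lost without TSA replicate 1 (log2 fold change 0.64, adjusted p = 0.324), DMSO replicate 1 (0.1) or DMSO replicate 2 (0.192), and without the robust estimate of spread (0.0539). The r of Myo6 was 0.79 with the neuron marker mean, 0.74 with that of hair cells and −0.69 with that of supporting cells.

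**Figure D2:**
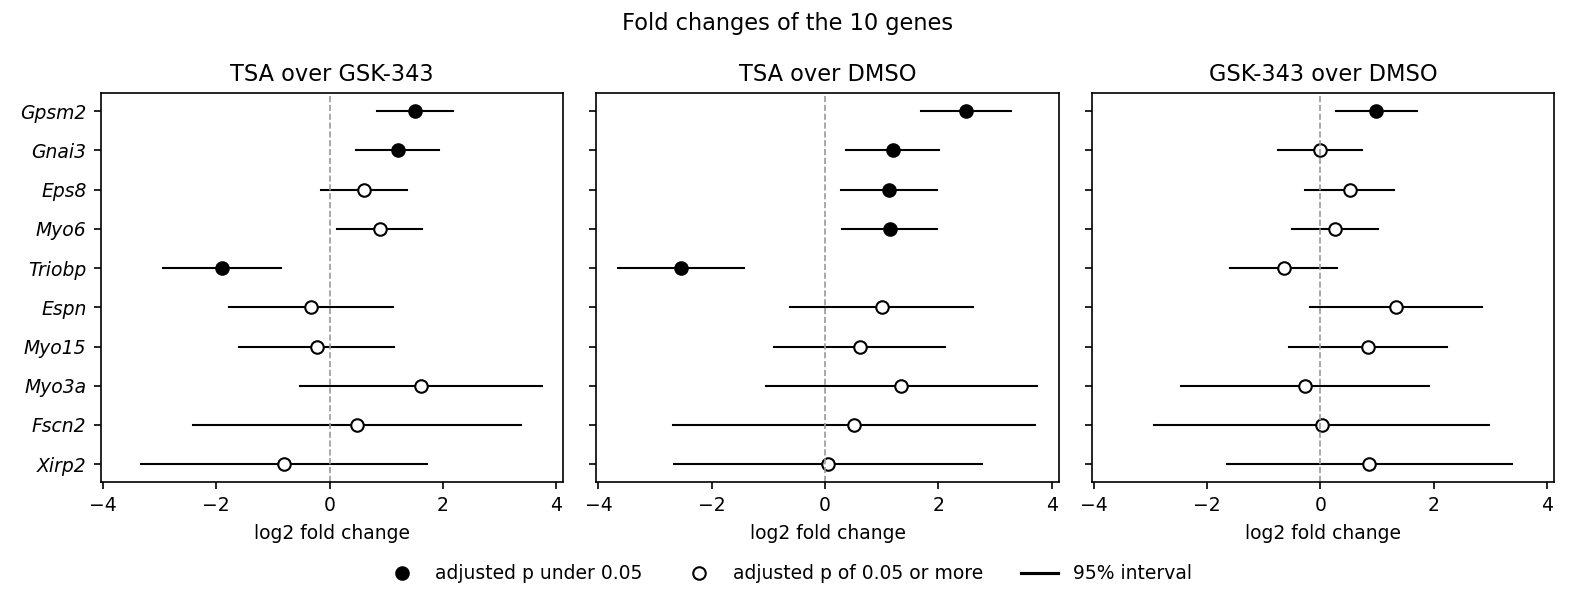
Log2 fold change of each gene in the 3 comparisons, with 95% intervals; filled points have an adjusted p under 0.05 by edgeR's quasi-likelihood test. Gpsm2 is filled in all 3 panels, and Triobp is filled on the left of 0 in both TSA panels, at −1.90 against GSK-343 and −2.55 against DMSO.

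Against DMSO, 4 of the 10 genes (Gpsm2, Gnai3, Eps8 and Myo6) rose and Triobp fell with TSA, where 29.2% of all genes tested were called (13.1% higher, 16.1% lower). The median log2 fold change of the 10 was 1.06, against −0.05 for all genes. With GSK-343, Gpsm2 rose and the other 9 genes did not pass, where 39.6% of all genes were called (18.1% higher, 21.5% lower), so the share of members called was under that of all genes. The median of the 10 was 0.39, against −0.04. Against DMSO with TSA, 8 of the 19 hair cell markers tested rose and 0 fell, 1 of the 16 supporting cell markers rose and 10 fell, and 4 of the 9 neuron markers rose and 0 fell. With GSK-343, 8 hair cell markers rose and 0 fell, 2 supporting cell markers rose and 3 fell, and 2 neuron markers rose and 2 fell. After removal of a trend on GC share and on length of transcripts, 5 members were called for GSK-343 over DMSO in place of 1: Gpsm2, Gnai3, Eps8 and Myo6 upwards and Triobp downwards. Without DMSO replicate 1 or DMSO replicate 2 the members called with TSA were 2 in place of 5, and without TSA replicate 1 or TSA replicate 2 they were 3. The comparisons with DMSO use the same DMSO libraries.

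The CPM values of the groups did not overlap for 5 members between TSA and GSK-343, for 5 between TSA and DMSO, and for 2 between GSK-343 and DMSO. The same held for 46.3%, 68.6% and 60.7% of all genes in these comparisons, so separation of such small groups is common in these libraries. In the deposited TPM, GSK-343 lay above DMSO without overlap for Gnai3, Eps8, Myo6, Espn and Myo15, while Gpsm2, apart in CPM, overlapped. TSA also lay above DMSO without overlap in TPM for Espn and Myo15, which overlapped in CPM. The share of all genes apart in TPM was not computed, and the part of effective length was not tested.

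The 10 genes differed in how well replicates repeated. The CPM of TSA replicate 1 over TSA replicate 2 was 28.7 for Fscn2, 14.0 for Xirp2, 12.2 for Myo3a, 4.64 for Myo15 and 4.20 for Espn. The same ratio was 2.87 for Triobp, 1.94 for Myo6, 1.13 for Gpsm2, 0.834 for Eps8 and 0.602 for Gnai3. The genes with the wide ratios are the tip motors and shaft proteins, and the mean log2 CPM of the 19 hair cell markers was 5.69 and 3.03 in the same TSA libraries. In GSK-343 the highest library over the lowest was 15.1 for Myo3a, 13.5 for Xirp2 and at most 4.51 for the other 8. The hair cell marker mean in GSK-343 was 4.55, 3.47 and 5.08, lowest in replicate 2, where Gnai3, Myo15, Myo3a, Fscn2, Xirp2 and Myo6 were lowest too. Espn and Triobp were lowest in GSK-343 replicate 1, and Gpsm2 and Eps8 in GSK-343 replicate 3. The part of hair cell content in these replicate differences was not tested.

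**Figure D3:**
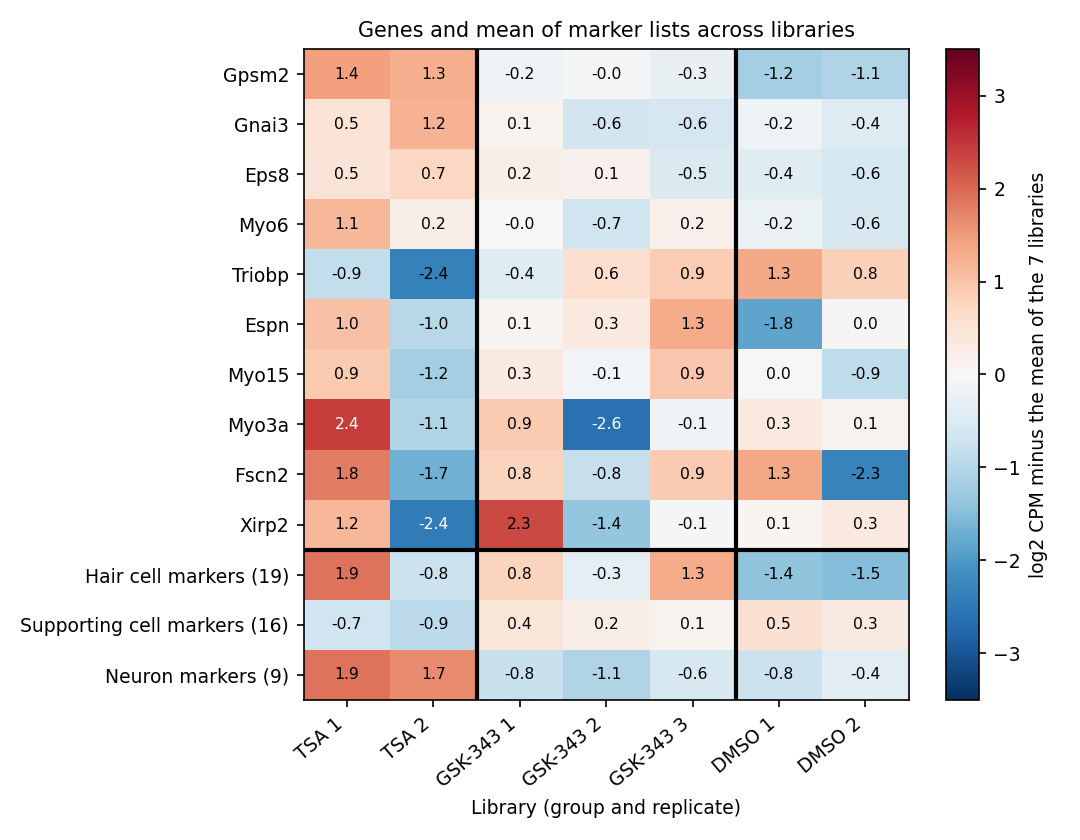
Log2 CPM of each gene, and the mean log2 CPM of 3 marker lists, minus the mean of the row over the 7 libraries. Columns are libraries (TSA, GSK-343, DMSO, with replicates), and red is above and blue below the row mean. Gpsm2, Gnai3, Eps8 and Myo6 are above their row mean in both TSA columns and Triobp is below, while the last 5 genes are above it in TSA replicate 1 and below it in TSA replicate 2.

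On a scale that takes account of transcript length (TPM), the 10 genes were ordered within each group. With TSA, Myo6 had the highest mean level (493 ± 265 TPM, SD, n = 2), then Gnai3 (187 ± 42.6) and Gpsm2 (126 ± 33.7), each neighbour in this order apart in all libraries. From Eps8 (54.0 ± 0.778) downwards, each neighbour overlapped the next, down to Xirp2 at 4.63 ± 5.81 TPM. With GSK-343, Myo6 (171 ± 36.3 TPM, n = 3) and Triobp (152 ± 70.0) led and overlapped, and Myo15 was last at 4.50 ± 1.19. In DMSO, Triobp led at 124 ± 7.28 TPM (n = 2), apart from Myo6 at 69.8 ± 19.7, while Xirp2 stood at 1.90 ± 0.0919 and Myo15 lower still. These orders compare genes within a group and are not compared across layouts.

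**Figure D4:**
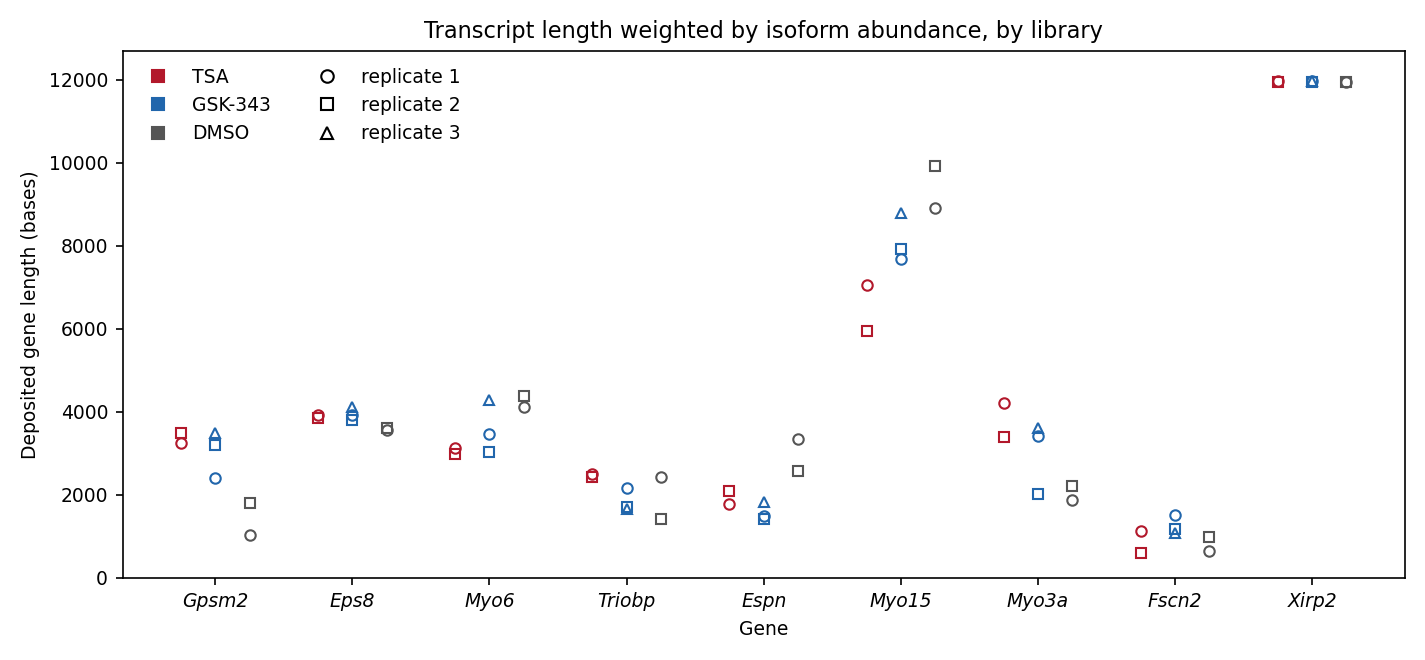
Deposited gene length, in bases, which RSEM weights by the abundance of each transcript, for the 9 genes with more than 1 transcript in the files. Colours mark groups and shapes replicates. Gpsm2 lies at 3245 and 3498 bases in TSA libraries and at 1043 and 1801 bases in DMSO, and Espn lies the other way; Fscn2 in DMSO replicate 2, with 0 counts, is placed at 991 bases.

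The deposited length of a gene, weighted by the estimated share of each transcript, gave a second readout of the same libraries. For Gpsm2 it was 3245 and 3498 bases in TSA libraries, 2401, 3207 and 3498 bases in GSK-343 libraries, and 1043 and 1801 bases in DMSO. The longest annotated transcript has 3498 bases, so in TSA replicate 2 and GSK-343 replicate 3 all Gpsm2 reads were assigned to it, while the DMSO libraries assigned part to the transcripts of 187 to 800 bases. For Espn the length was 1787 and 2096 bases in TSA libraries, 1489, 1423 and 1830 bases in GSK-343 libraries, and 3349 and 2585 bases in DMSO, so the treated and DMSO libraries separated in the other direction. For both genes the treated libraries did not overlap DMSO, and TSA overlapped GSK-343.

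Triobp had lengths of 2514 and 2436 bases in TSA libraries, 2172, 1713 and 1669 bases in GSK-343 libraries, and 2422 and 1418 bases in DMSO. Both TSA libraries were above all GSK-343 libraries. Of the 9 Triobp transcripts in the files 5 matched the annotation used here, with lengths of 404 to 7187 bases. Myo15 had 7055 and 5939 bases in TSA libraries, 7691, 7935 and 8782 bases in GSK-343 libraries, and 8916 and 9929 bases in DMSO, with no overlap between any groups. Xirp2 stood at exactly 11979 bases (TSA replicate 1, GSK-343 replicates 1 and 3) or exactly 11955 bases (the other 4 libraries), the lengths of its 2 transcripts, so each library assigned all Xirp2 reads to a single transcript. Gnai3 has 1 transcript, of 3262 bases, and its level does not depend on such assignment. No test was made on these lengths.

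Of 63 other genes of the hair bundle, its polarity and its actin, 60 were tested. Between the compounds TSA gave 2 higher and 4 lower genes than GSK-343 (median log2 fold change −0.14, against 0.00 for all genes). These 6 of 60 are close to the 10.7% called among all genes tested, so the list as a whole did not stand out. Gnai1, the paralogue of Gnai3 that also binds GPSM2, averaged 75.9 CPM in TSA libraries and 10.6 CPM in GSK-343 libraries (2.83 ± 0.55 on the log2 scale, adjusted p = 0.00784, and 0.155 without TSA replicate 2). The actin crosslinker gene Pls3 averaged 64.3 CPM in TSA libraries and 5.96 CPM in GSK-343 libraries (3.42 ± 0.48, adjusted p = 0.00179). Its relative Pls1, the plastin typical of stereocilia, went the other way, with 153 CPM in TSA libraries and 394 CPM in GSK-343 libraries (−1.36 ± 0.38, adjusted p = 0.035). The Pls1 call was lost when any single library other than GSK-343 replicate 2 was left out, with adjusted p of 0.0504 to 0.182. Leaving out TSA replicate 2 gave 3 calls in this list in place of 6, and leaving out GSK-343 replicate 1 gave 11.

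The other genes of that list that fell with TSA relative to GSK-343 were Tmod1, Cfl1 and Tprn. Tmod1, which caps pointed ends, averaged 261 CPM in TSA libraries and 1035 CPM in GSK-343 libraries (−1.98 ± 0.33, adjusted p = 0.00376). Cfl1, the filament-severing protein cofilin, differed by −1.86 ± 0.37 on the log2 scale (adjusted p = 0.00865, but 0.0902 when TSA replicate 2 was left out), and the taperin gene Tprn by −2.76 ± 0.58 (adjusted p = 0.0105, but 0.116 without TSA replicate 2). In the limma fits on TPM the Cfl1 call was lost (adjusted p 0.068 to 0.139), as was that of Tprn (0.0546 to 0.105), and the Tmod1 call was lost in 2 of the 3 (0.0653 and 0.106).

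Against DMSO, 14 of the 60 rose and 4 fell with TSA (median 0.69, against −0.05), and 23 rose and 7 fell with GSK-343 (median 0.75, against −0.04). Among all genes tested 13.1% rose and 16.1% fell with TSA, 29.2% together, and 18.1% rose and 21.5% fell with GSK-343, 39.6% together. The 18 of 60 called with TSA are at the share of all genes when directions are pooled, but not by direction. Upwards, 14 of 60 compare with 13.1% of all genes, and downwards 4 of 60 with 16.1%. With GSK-343, 30 of 60 were called against 39.6% of all genes, and 23 of 60 rose against 18.1%. No test was made on the list as a set. Of the 10 genes tested in the tip and elongation group, 5 rose and 0 fell with TSA and 7 rose and 0 fell with GSK-343. That group also holds the capping protein genes Capzb, Capza1 and Capza2 and the taperin gene Tprn, so its counts are not of tip proteins alone. Of the 13 polarity and G protein genes, 2 rose and 1 fell with TSA and 3 rose and 2 fell with GSK-343. Actg1, the cytoplasmic gamma actin of stereocilia, averaged 5907 CPM in TSA libraries, 7141 CPM in GSK-343 libraries and 580 CPM in DMSO, and rose by 3.35 ± 0.37 with TSA (adjusted p = 3.52e-05) and by 3.62 ± 0.37 with GSK-343 (adjusted p = 8.58e-06). The profilin genes, whose products bind actin monomers, went in opposite directions. Pfn2 rose by 3.29 ± 0.40 with TSA and 3.18 ± 0.38 with GSK-343, and Pfn1 changed by −3.62 ± 0.56 with TSA (adjusted p = 0.000485) and −2.22 ± 0.45 with GSK-343 (adjusted p = 0.00166). Actg1, Pfn1 and Cfl1 have processed copies elsewhere in the genome, so their counts are uncertain where reads could be shared. Ccdc88c, which binds inhibitory G protein subunits such as Gnai3, changed by −2.48 ± 0.53 with TSA and −2.20 ± 0.46 with GSK-343 against DMSO, and the filopodial motor gene Myo10 by −2.07 ± 0.39 with TSA and −1.81 ± 0.34 with GSK-343. In the limma fits on TPM the Ccdc88c and Myo10 calls were lost with both compounds (adjusted p of 0.113 to 0.252), with log2 fold changes of −1.33 to −1.51 for Ccdc88c, as was the Pfn1 call with GSK-343 (−1.39 to −1.40, adjusted p of 0.122 to 0.191). Cfl1 changed by −1.38 ± 0.39 with TSA (adjusted p = 0.0157), a call lost with total count scaling (−0.67, adjusted p = 0.206), in the limma fits (0.11 to 0.165) and without TSA replicate 2 or DMSO replicate 2 (0.127 each).

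The rest of the named genes of that list were these. Tpm1, a tropomyosin gene, averaged 772 CPM in TSA libraries, 397 CPM in GSK-343 libraries and 76.7 CPM in DMSO, and rose by 3.33 ± 0.50 with TSA (adjusted p = 0.000364) and 2.37 ± 0.46 with GSK-343 (adjusted p = 0.00115). Cib2, a calcium-binding partner of the transduction channel, rose by 2.52 ± 0.59 with TSA (adjusted p = 0.00658, but 0.0562 without TSA replicate 1 and 0.0549 without DMSO replicate 1). Capzb, a subunit of the barbed-end capping protein, averaged 521 CPM in GSK-343 libraries and 116 CPM in DMSO and rose by 2.17 ± 0.37 (adjusted p = 0.000454). Msn, which links membrane to actin, changed by −2.12 ± 0.60 with GSK-343 (adjusted p = 0.0116). The Msn call was lost in 7 alternatives (adjusted p of 0.0526 to 0.232), among them the limma fits, the replicate block and the fit without DMSO replicate 1. Without DMSO replicate 1 or DMSO replicate 2 the calls in this list numbered 11 or 9 with TSA, in place of 18, and 18 or 17 with GSK-343, in place of 30. With scaling by total counts they numbered 33 with TSA. In each of these calls treatment and read layout cannot be told apart.

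The genes whose log2 CPM over the 7 libraries was most like that of each member, among tested genes whose mean log2 CPM reached 3, were read as a description, since the points share depth, layout and treatment. Gpsm2 was most like Akr1b3 (r = 0.98) and Pdpn (0.98), and Gnai3 most like Rabep1 (0.98) and Fam91a1 (0.98). Eps8 was most like Otud6b and Gprasp2 (0.98 each), and Triobp most like G6pdx and Ppdpf (0.99 each). Myo15 was most like Rbm24 (0.96) and Espnl (0.96), and Espn most like Lhfpl5 (0.97) and Col1a2 (0.97). Espnl, the espin-like protein of stereocilia, and Lhfpl5, a subunit of the transduction channel, are hair cell genes, while Col1a2 was listed here as a mesenchyme marker. Myo6 was most like Nrsn1 (0.95), Myo3a most like Pkhd1l1 (0.95) and Lin9 (0.93), Fscn2 most like Fam120b (0.96) and P2rx3 (0.93), and Xirp2 most like Fzd6 (0.96) and Lmo7 (0.93). Pkhd1l1 encodes a protein of the stereocilia coat. The other genes named in this paragraph were not sorted by cell type.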

How the data were processed

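RNA from GFP-sorted supporting cells was made into libraries with a kit for single cells and small inputs (QIAseq FX Single Cell RNA), per the labels' protocols. STAR, RSEM and DESeq2 and the build mm10 are named in the submitters' processing notes; their versions and settings are not given in the sources used here. The deposited expected counts are estimates from RSEM, which share ambiguous reads between genes and are not scaled between libraries. The TPM values deposited by the authors divide by effective length and have a fixed sum per library; the deposited FPKM were not used. Among counts above 0, 11.0% to 13.0% were not whole in the treated libraries, against 45.8% to 50.8% in DMSO. Per the file headers, the tables also give a gene length and an effective length in bases, which were read as deposited.

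Gene identifiers were matched to GENCODE M21 without their version suffix (48349 of 48709 matched). After rounding, the expected counts entered edgeR 4.0.16 (R 4.3.3). The 14907 genes kept by filterByExpr were fitted in 1 model of all 7 libraries by quasi-likelihood with robust estimation, TMM scaling (factors 0.754 to 1.32) and 4 residual degrees of freedom. The biological coefficient of variation was 0.43. The SE was obtained by dividing the log2 fold change by the root of its F value, and intervals use the t distribution at 95%. Log2 CPM used a prior count of 2. An unadjusted p under 0.05 was found for 4163 genes (TSA over GSK-343), 6081 genes (TSA over DMSO) and 7240 genes (GSK-343 over DMSO). The pipeline was tested on simulated data, in which 67, 67 and 66 of 14907 genes were changed 2-, 4- and 8-fold in TSA alone. In the real data 1598 genes were called for TSA over GSK-343 and 4359 for TSA over DMSO. With so few changed genes the Benjamini-Hochberg adjustment is stricter, so the shares given next do not measure recovery in the real data. A simulated 2-fold change was called with the right sign in 4.5% of 67 genes for TSA over GSK-343 and in 0.0% for TSA over DMSO. At 4-fold these shares were 50.7% and 43.3%, and at 8-fold 69.7% and 66.7%. False calls among the unchanged genes numbered 2 and 4. A gene that did not pass may still have changed. Replicates were checked for duplicates (chi-square per gene 15.0 to 44.2, r of log2 CPM 0.892 to 0.947). The members, the gene lists and the tests were chosen with earlier results of these data known. Named genes are the 10 members, up to 4 genes per direction and comparison of the wider list past the threshold by smallest adjusted p, and the 2 genes most like each member, of which 1 is not reported here. Alternatives were other scalings, other filters, the replicate block, each library left out in turn, DESeq2 1.42.0, limma 3.58.1 on log2(TPM + 1) or log2(TPM + 0.1), and, added after the data were seen, removal of a GC content and length trend, nuclear protein-coding genes alone and a fit without robust estimation. Figures were drawn with matplotlib 3.10.9.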

Additional observations from a re-analysis of the deposited data

How the results depend on the processing

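Over the 10 genes and 3 comparisons, 495 of 597 values from alternatives kept the direction and the side of the threshold, 44 kept the direction and lost the call, 8 gained a call and 50 changed sign. Of 440 such values for the named genes of the wider list, 384 kept both and 56 lost the call, with 0 changes of sign.

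For TSA against GSK-343, members called numbered 3, and 0 in each of the 3 limma fits on TPM. Without 1 library they numbered 0 (without TSA replicate 2) to 3, with 1 without GSK-343 replicate 3. The wider list gave 6 calls, with 3, 1 and 0 in the limma fits and 3 to 11 without 1 library. All genes called were 1598, with 1007, 619 and 5 in the limma fits and 162 to 2111 without 1 library. For TSA against DMSO, members called numbered 5 and were 2 to 5 without 1 library. The wider list gave 18 calls, 33 with total count scaling and 9 to 26 without 1 library, and all genes 4359, with 7530, 6876 and 7617 in the limma fits and 1984 to 5224 without 1 library. For GSK-343 against DMSO, members called numbered 1, Gpsm2, with 2 under total count scaling (Gpsm2 and Eps8) and 2 under limma on log2(TPM + 1) (Espn and Myo6), 1 under limma on log2(TPM + 0.1) (Espn), 0 under limma without a filter, 5 after the GC and length trend was removed, and 0 to 1 without 1 library (Espn in place of Gpsm2 without DMSO replicate 2). The wider list gave 30 calls there, with 17 to 31 without 1 library. The limma fits test more genes and use another scale; the cause of the other shifts was not tested. Total count scaling moved the median log2 fold change of all genes to 0.20 (TSA over GSK-343), 0.65 (TSA over DMSO) and 0.42 (GSK-343 over DMSO), and turned the split of all calls into 1020 higher and 431 lower (752 and 846 with TMM), 3871 and 1307 (1957 and 2402), and 3948 and 2273 (2695 and 3208). In the same order, the fits on log2(TPM + 1) moved it to 0.24, 0.67 and 0.24, those on log2(TPM + 0.1) to 0.33, 0.84 and 0.29, and those without a filter to 0.00, −0.15 and −0.27.

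Replicate numbers 1 and 2 are shared by all groups, but libraries with the same number did not deviate together (r of deviations of the 6 same-numbered pairs between −0.094 and 0.040). These 6 values are not independent. With 2 libraries in a group the deviations mirror each other, and both same-numbered pairs of TSA with DMSO gave −0.013. An r near 0 over all genes cannot settle whether the numbers pair the samples. With the replicate block, 852 genes were called for TSA against GSK-343, and 0 members for GSK-343 against DMSO, where Gpsm2 had an adjusted p of 0.0796. The block also gave Gnai3 0.123 (TSA against GSK-343) and Eps8 0.077 (TSA against DMSO). Signs that changed under the block were Espn 0.15 and Fscn2 −0.12 for TSA against GSK-343, Xirp2 −1.23 for TSA over DMSO, and Gnai3 0.10 and Xirp2 −0.10 for GSK-343 over DMSO.

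The other log2 fold changes that changed sign did so as follows. For TSA against GSK-343, Myo15 was 0.08 with total count scaling, 0.17, 0.15 and 0.17 in the limma fits, and −1.72 to 0.47 without 1 library; Espn was 0.07 without the GC and length trend and −1.71 to 0.34 without 1 library. Without 1 library, Myo3a was −1.11 to 2.51, Fscn2 −3.28 to 1.41 and Xirp2 −3.71 to 0.87. For TSA against DMSO without 1 library, Myo15 was −0.83 to 1.37, Espn −0.32 to 2.33, Myo3a −1.32 to 2.27, Fscn2 −3.21 to 7.05 and Xirp2 −2.79 to 0.99. For GSK-343 against DMSO, Gnai3 was 0.46 with total count scaling, 0.09 without a filter, 0.76, 0.77 and 0.76 in the limma fits, 1.30 (adjusted p = 0.00492) without the GC and length trend, and −0.29 to 0.18 without 1 library. Triobp was 0.16 in all 3 limma fits, with −1.55 (adjusted p = 0.00495) without the trend. Myo3a was 0.18 with total count scaling, 0.92 without the trend and −1.16 to 0.25 without 1 library. Fscn2 was −0.03 with DESeq2 size factors, −0.02 with the DESeq2 Wald test, −0.57 without the trend, −0.07 with nuclear protein-coding genes alone and −0.93 to 6.59 without 1 library, and Xirp2 was −0.80 to 1.36 without 1 library.

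Where a left-out library leaves 1 in a group, that library is assumed to vary like the others. Genes of few reads limit precision: Fscn2 had 0 to 30 counts per library and Myo3a 6 to 230.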
